A study of Homo sapiens with 6 samples.

Results

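Glycosphingolipids are membrane lipids in which a chain of sugars is carried on ceramide, and 9 enzymes that build these chains were followed here in PC3 cells with and without GCNT1 overexpression. They were taken as a named list, and 8 of the 9, among the 12703 genes of the count table, could be compared (B3GALT4, the galactosyltransferase that makes GM1 and related gangliosides, was not analysed here). PC3 cells are a long-established line of human prostate cancer, derived from a bone metastasis. The 3 control lines (Lenti-ORF control) carried negative-control lentiviral particles, and the 3 GCNT1 overexpression lines carried lentiviral particles encoding GCNT1, the glycosyltransferase that makes the core 2 branch of O-glycans. All 6 were stable transductants of the same parental line, and the promoter driving GCNT1 and whether each line was a clone or a pool were not given in the sources used here. The comparison asks whether transcripts of lipid glycosylation, a pathway outside O-glycosylation, differed between the groups.

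Glycosphingolipid synthesis starts in one of 2 ways. UGCG adds glucose to ceramide, or UGT8 adds galactose to it, which gives the galactosylceramide that myelin is rich in. B4GALT5 and B4GALT6 then extend glucosylceramide to lactosylceramide, the branch point of the pathway. There ST3GAL5 opens the ganglioside series (GM3), A4GALT the globo-series (Gb3) and B3GNT5 the lacto- and neolacto-series, while B4GALNT1 extends the gangliosides towards GM2 and GD2. These lipids are cell surface antigens, receptors for toxins and partners of growth factor receptors in many cancer cells.

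The libraries held between 11392213 and 13825704 counts, so 3 counts, the floor used here, corresponded to between 0.217 and 0.263 CPM (the usual scaling of a count to the total of its library, a limit for counting error only). The labels call the libraries biological replicates, and p-values measure the spread between these lines. The groups lay apart on the first principal component, which took up 89.3% of the variance in log2 CPM. GCNT1 itself had 9, 13 and 8 counts in control and 13, 16 and 35 counts in overexpression libraries. Its log2 fold change (overexpression minus control, used throughout) was 0.98 (standard error 0.37, edgeR quasi-likelihood test, BH-adjusted p = 0.0362), and without overexpression replicate 3 it was 0.49 (edgeR, BH-adjusted p = 0.269). The adjusted p also missed the threshold without control replicate 1 or 3 and with DESeq2 (0.0821). With limma-voom the log2 fold change of GCNT1 was 0.88 (BH-adjusted p = 0.0477). The authors also examined PC3 cells with GCNT1 overexpression by real-time PCR, sandwich ELISA and immunocytochemistry. PRUNE2 overlaps GCNT1 on the opposite strand. Of the epithelial and cell line markers, KRT8, KRT18, KRT19, EPCAM, CDH1 and VIM were all in the table, with a summed level of 1910 to 2030 CPM in control and 1969 to 2168 CPM in overexpression libraries. VIM, a mesenchymal gene, made up most of that sum (mean 1127 and 1390 CPM), and the 5 epithelial markers without it summed to 822 to 869 CPM in control and 626 to 710 CPM in overexpression libraries, a split made after the data were seen. Of 6 fibroblast markers only COL1A1 was compared (called lower, 13.7 to 15.7 and 8.23 to 8.86 CPM), and of 7 leukocyte and endothelial markers only CD68 and PECAM1 (summed level 84.8 to 96.3 and 83.9 to 94.6 CPM), PECAM1 being called higher. Among the epithelial markers KRT19 and CDH1 were called lower. The part of these markers in the results on the enzymes was not tested.

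Of the 8 enzymes, 4 passed both thresholds of the study, 0.05 for the adjusted p and 0.58 for the size of the log2 fold change, against 19.3% of all genes. UGCG and UGT8, which glycosylate ceramide itself, were higher with GCNT1 overexpression, and ST3GAL5 and A4GALT, which open the ganglioside and globo-series, were lower. Bulk counts cannot separate a change in RNA per cell from a change in the share of cells expressing a gene. Among all genes 8.28% were called higher and 11.1% lower. By the adjusted p alone 6 of the 8 passed, against 57.6% of all genes, and the additional members were B4GALT5 and B4GALNT1, both higher. The median log2 fold change of the 8 was 0.10 and that of all genes 0.00, while the median absolute log2 fold change was 0.59 and 0.26. The list was chosen with earlier results of these data known. These shares and medians therefore describe the list and cannot show an excess of change in the pathway.

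The start sites of the 4 called enzymes are shown here so that the members that moved can be compared at the sequence level. Each window is the RefSeq promoter (GRCh38.p14) at the outermost start of the gene, from 250 bases before to 50 bases after that start, written 5′ to 3′ on the strand of the gene, with capitals on each GC box (GGGCGG on either strand). UGCG lies at chr9:111896564-111896863 on the plus strand, UGT8 at chr4:114598152-114598451 on the plus strand, ST3GAL5 at chr2:85888985-85889284 on the minus strand and A4GALT at chr22:42721252-42721551 on the minus strand.

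UGCG: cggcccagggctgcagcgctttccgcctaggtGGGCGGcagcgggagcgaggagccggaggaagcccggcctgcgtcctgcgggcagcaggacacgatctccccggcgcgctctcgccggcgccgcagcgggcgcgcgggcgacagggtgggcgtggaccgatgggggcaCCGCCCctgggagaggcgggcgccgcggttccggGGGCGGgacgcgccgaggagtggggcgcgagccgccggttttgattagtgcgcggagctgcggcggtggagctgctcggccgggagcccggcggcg
UGT8: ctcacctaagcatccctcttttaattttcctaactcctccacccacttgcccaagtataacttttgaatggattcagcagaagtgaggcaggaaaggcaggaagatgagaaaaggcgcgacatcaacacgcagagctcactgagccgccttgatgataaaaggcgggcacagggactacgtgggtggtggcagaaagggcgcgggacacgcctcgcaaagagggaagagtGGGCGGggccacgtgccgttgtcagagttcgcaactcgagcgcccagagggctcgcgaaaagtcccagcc
ST3GAL5: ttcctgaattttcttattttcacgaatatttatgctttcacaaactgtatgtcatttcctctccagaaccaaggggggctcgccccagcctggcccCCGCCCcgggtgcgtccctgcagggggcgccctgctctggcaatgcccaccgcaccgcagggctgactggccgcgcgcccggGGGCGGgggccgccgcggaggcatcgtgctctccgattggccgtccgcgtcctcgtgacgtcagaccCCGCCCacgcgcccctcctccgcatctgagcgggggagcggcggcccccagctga
A4GALT: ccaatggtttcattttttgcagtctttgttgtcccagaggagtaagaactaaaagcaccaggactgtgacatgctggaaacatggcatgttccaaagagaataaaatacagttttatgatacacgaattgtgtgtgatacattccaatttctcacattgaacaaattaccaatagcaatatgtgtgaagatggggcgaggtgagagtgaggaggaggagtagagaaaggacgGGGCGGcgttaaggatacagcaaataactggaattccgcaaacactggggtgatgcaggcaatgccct

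UGCG and ST3GAL5 each held 3 GC boxes in this window, and UGT8 and A4GALT held 1 each. Of 24885 RefSeq windows of the same kind, 43.9% held at least 1. The G and C content was 79% for UGCG, 56.3% for UGT8, 68% for ST3GAL5 and 43.3% for A4GALT, against a median of 58% over all windows. CCAAT, searched on both strands, occurred 3 times in A4GALT, 1 time in ST3GAL5 and not in UGCG or UGT8 (36.1% of all windows). CACGTG occurred in UGT8 (7.4% of all windows), and TATAAA was in none of these windows (12.3% of all windows). B4GALT5 (3 GC boxes) and B3GNT5 (5 GC boxes) also had a window, so windows were matched for 6 of the 9 enzymes. GC boxes were in all 4 windows of the called enzymes. Outside those 4, CCAAT was in neither the B4GALT5 nor the B3GNT5 window (0 in each). These are matches of letters, and neither binding nor a link to the direction of change was tested.

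UGCG, the glucosyltransferase that makes the first lipid of most of the pathway, showed the largest rise among the 8 enzymes. The gene (Entrez 7357) lies on chromosome 9 from 111896814 to 111935369 (hg38), with no other protein-coding or long non-coding gene of GENCODE 44 overlapping it. UGCG had 293, 261 and 230 counts in control and 428, 603 and 645 counts in GCNT1 overexpression libraries. Each overexpression library lay above each control library. After TMM scaling the level rose from 21.2 ± 1.93 to 42.2 ± 4.61 CPM (SD, n = 3 each), a 1.99-fold change (log2 fold change 0.99, standard error 0.09, edgeR, BH-adjusted p = 1.33e-06).

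UGT8, which makes galactosylceramide from the same ceramide, lies on chromosome 4 from 114598402 to 114678225, also without an overlapping gene. Its counts were 386, 419 and 336 in control and 558, 658 and 636 in overexpression libraries. The groups did not overlap, and the level rose from 30.9 ± 2.62 to 47.1 ± 1.73 CPM (SD, n = 3 each), or 1.52-fold (log2 fold change 0.60, standard error 0.07, edgeR, BH-adjusted p = 1.32e-05). This lies close to the fold threshold, and without control replicate 3 the log2 fold change was 0.55, under the threshold. With glmTreat, an edgeR test against the fold threshold, UGT8 was not called (BH-adjusted p = 0.911).

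B4GALT5 and B4GALT6, the paralogous lactosylceramide synthases, share this step. B4GALT5 (chromosome 20, 49632945 to 49713878) was counted 1691, 1636 and 1534 times in control and 1749, 2269 and 2237 times in overexpression libraries. On the CPM scale the groups did not overlap, and the level rose 1.20-fold, from 132 ± 2.34 to 158 ± 7.03 CPM (SD, n = 3 each; log2 fold change 0.26, standard error 0.05, edgeR, BH-adjusted p = 0.000627), which is below the fold threshold. B4GALT6 (chromosome 18, 31622246 to 31724641) was counted 407, 394 and 321 times in control and 288, 440 and 431 times in overexpression libraries. Its groups overlapped, from 27.2 to 32.3 CPM in control and from 24.9 to 32.0 CPM with overexpression, and the log2 fold change of -0.05 had a 95% interval from -0.27 to 0.16 (edgeR, BH-adjusted p = 0.656). Scaling by library size alone gave 0.00 for B4GALT6. An antisense gene overlaps exons of B4GALT6, and whether the counting used strand was not given in the sources used here.

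**Figure D1:**
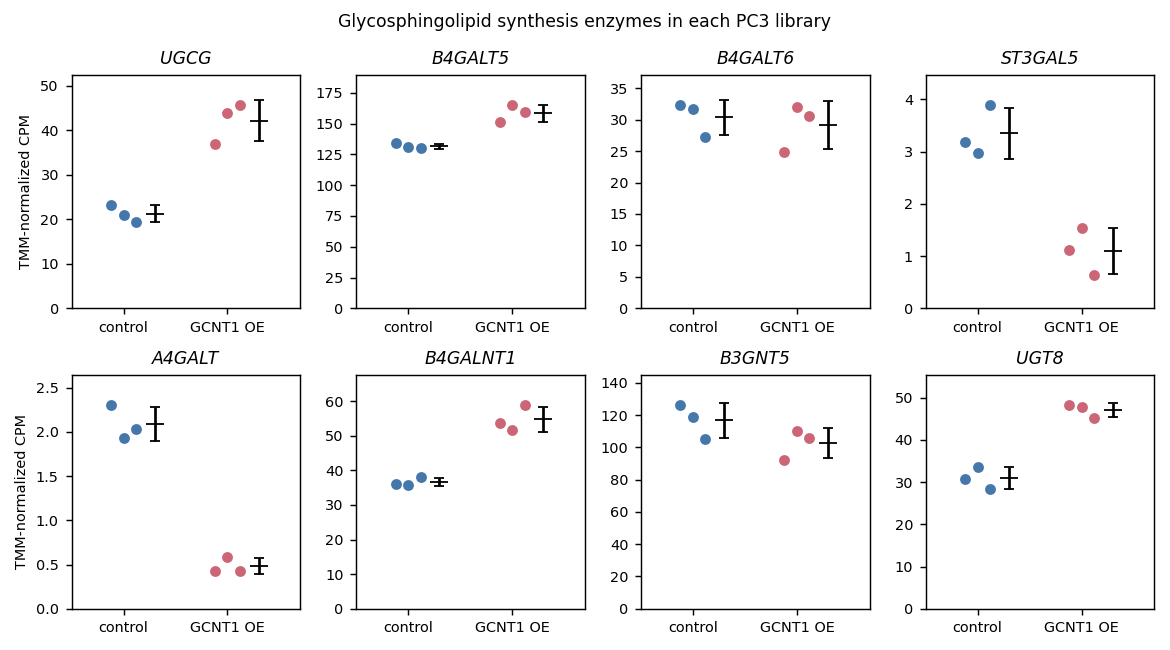
Level of each enzyme in each library, as TMM-normalized CPM on axes that start at 0. Points are the 3 control (blue) and 3 GCNT1 overexpression (red) libraries, and the black bars beside them are the mean ± SD. UGCG, UGT8, B4GALNT1 and B4GALT5 lie higher in every overexpression library than in any control library, ST3GAL5 and A4GALT lie lower, and B4GALT6 and B3GNT5 overlap. Groups that do not overlap were common, as in 35 of the 50 other pathway genes compared, and the share over all genes was not taken.

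ST3GAL5, the sialyltransferase that makes GM3 from lactosylceramide, was low in control cells and lower with GCNT1 overexpression. It lies on chromosome 2 from 85837120 to 85889034 and was counted 40, 37 and 46 times in control and 13, 21 and 9 times in overexpression libraries. The groups did not overlap, although the overexpression libraries ranged from 0.638 to 1.53 CPM. The mean fell 3.04-fold, from 3.35 ± 0.482 to 1.10 ± 0.446 CPM (SD, n = 3 each; log2 fold change -1.60, standard error 0.27, edgeR, BH-adjusted p = 0.000195). With any library left out the log2 fold change lay between -1.94 and -1.31 and the call was kept. Antisense genes, ST3GAL5-AS1 among them, overlap the gene outside its exons.

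A4GALT, the galactosyltransferase that makes Gb3, the receptor of Shiga toxin, was also low in control cells and lower with GCNT1 overexpression. It lies on chromosome 22 from 42692121 to 42721301 and was counted 29, 24 and 24 times in control and 5, 8 and 6 times in overexpression libraries. All 3 overexpression libraries lay below the controls and above the floor of 3 counts. The level fell 4.27-fold, from 2.09 ± 0.195 to 0.480 ± 0.0888 CPM (SD, n = 3 each; log2 fold change -2.09, standard error 0.28, edgeR, BH-adjusted p = 2.96e-05). CYB5R3, the cytochrome b5 reductase gene, overlaps A4GALT exons on the same strand, and reads could be split between them. CYB5R3 was counted 5295, 5432 and 5401 times in control and 3965, 4381 and 4531 times in overexpression libraries (log2 fold change -0.42, edgeR, BH-adjusted p = 8.24e-06), short of the fold threshold.

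B3GNT5, which opens the lacto- and neolacto-series and so competes for the same lactosylceramide, was abundant in both groups. It lies on chromosome 3 from 183253253 to 183273385, where MCF2L2 overlaps it on the opposite strand. Its counts were 1591, 1481 and 1239 in control and 1068, 1510 and 1495 in overexpression libraries, which is 105 to 126 and 92.3 to 110 CPM. These ranges overlapped, and the log2 fold change was -0.18 (95% interval -0.35 to -0.02, edgeR, BH-adjusted p = 0.0582). Without control replicate 3 it was -0.25 (edgeR, BH-adjusted p = 0.0107) and without overexpression replicate 2 it was -0.23 (edgeR, BH-adjusted p = 0.0375), below the fold threshold in both.

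B4GALNT1, the enzyme that converts GM3 and GD3 to GM2 and GD2, was higher with GCNT1 overexpression, although ST3GAL5, which lies before it in the pathway, was lower. It lies on chromosome 12 from 57623409 to 57633201 and was counted 456, 447 and 451 times in control and 620, 712 and 829 times in overexpression libraries. The groups did not overlap. The level rose 1.49-fold, from 36.8 ± 1.21 to 54.7 ± 3.60 CPM (SD, n = 3 each; log2 fold change 0.575, standard error 0.07, edgeR, BH-adjusted p = 9.83e-06), which misses the fold threshold by a small margin. It passed that threshold with library size in place of TMM (0.63) and without control replicate 3 (0.60), overexpression replicate 1 (0.59) or overexpression replicate 2 (0.62). An unnamed antisense gene overlaps its exons.

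Per transcript length the 8 enzymes fell into 3 tiers. RPKM (CPM, TMM-scaled, divided by the length of the MANE Select transcript in kilobases) was 28.4 ± 2.67 for B3GNT5 and 27.9 ± 0.495 for B4GALT5 in control cells (SD, n = 3 each), and these did not differ beyond their spread. UGT8 followed at 8.28, B4GALNT1 at 6.85, B4GALT6 at 6.50 and UGCG at 5.36 RPKM, where UGT8 stood above B4GALNT1 while the ranges of B4GALNT1 and B4GALT6, and of B4GALT6 and UGCG, overlapped. A4GALT at 0.998 and ST3GAL5 at 0.767 RPKM were lowest. With GCNT1 overexpression the order became B4GALT5 (33.5 RPKM), B3GNT5 (25.0), UGT8 (12.6), UGCG (10.7), B4GALNT1 (10.2), B4GALT6 (6.24), ST3GAL5 (0.251) and A4GALT (0.229). UGCG ranked 4 in that order, against 6 in control, with its range overlapping that of B4GALNT1, and the ranges of ST3GAL5 and A4GALT overlapped. With the union of annotated exons as length, chosen after the data were seen, the control level of B3GNT5 was 14.4, of A4GALT 0.622 and of ST3GAL5 0.205 RPKM while B4GALT5 stayed at 27.9, so B4GALT5 then ranked above B3GNT5 in control, and A4GALT ranked above ST3GAL5 in both groups without overlap.

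**Figure D2:**
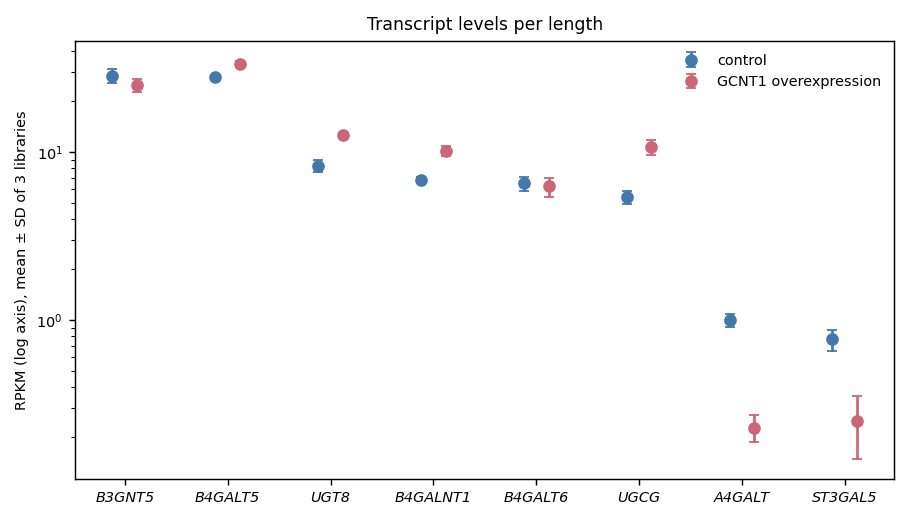
RPKM of each enzyme on a log axis, in the order of the control level, as mean ± SD of the 3 control (blue) and 3 GCNT1 overexpression (red) libraries. B3GNT5 and B4GALT5 stand above 20 RPKM in both groups, and A4GALT and ST3GAL5 lie at or under 1 RPKM and are lower with overexpression.

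Enzymes that share a substrate were next compared as ratios of counts within each library, which do not depend on library scaling. Of 8 ratios, 7 had groups that did not overlap, against 63.7% of all pairs of genes in the table, so such separation was common and the count is not a result about these enzymes. Each of the 7 had an exact two-sided permutation p of 0.1, the smallest that 3 libraries against 3 allow (BH-adjusted over the 8 ratios, 0.114), so no ratio could pass 0.05. Differences below are of log2 ratios, overexpression minus control.

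For ceramide, UGCG was compared with the sphingomyelin synthases. The UGCG to SGMS2 ratio was 0.503, 0.508 and 0.468 in control and 1.03, 1.02 and 1.04 in overexpression libraries, a difference of 1.06. SGMS2 itself had a log2 fold change of -0.07 (edgeR, BH-adjusted p = 0.509). The UGCG to SGMS1 ratio differed by 0.74, and the UGCG to UGT8 ratio, of 2 genes that both rose, by 0.38. For the lactosylceramide step, the B4GALT5 to B4GALT6 ratio was 4.15, 4.15 and 4.78 in control and 6.07, 5.16 and 5.19 in overexpression libraries, a difference of 0.33.

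At the lactosylceramide branch point the A4GALT to B3GNT5 ratio differed by -1.86 and the ST3GAL5 to B3GNT5 ratio by -1.47. The ST3GAL5 to B4GALNT1 ratio, of 2 successive ganglioside enzymes, was 0.0877, 0.0828 and 0.102 in control and 0.0210, 0.0295 and 0.0109 in overexpression libraries, a difference of -2.22. ST3GAL5 to A4GALT was the ratio with overlapping groups (difference 0.40, exact two-sided permutation p = 0.3), so a difference between the falls of these enzymes was not shown.

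**Figure D3:**
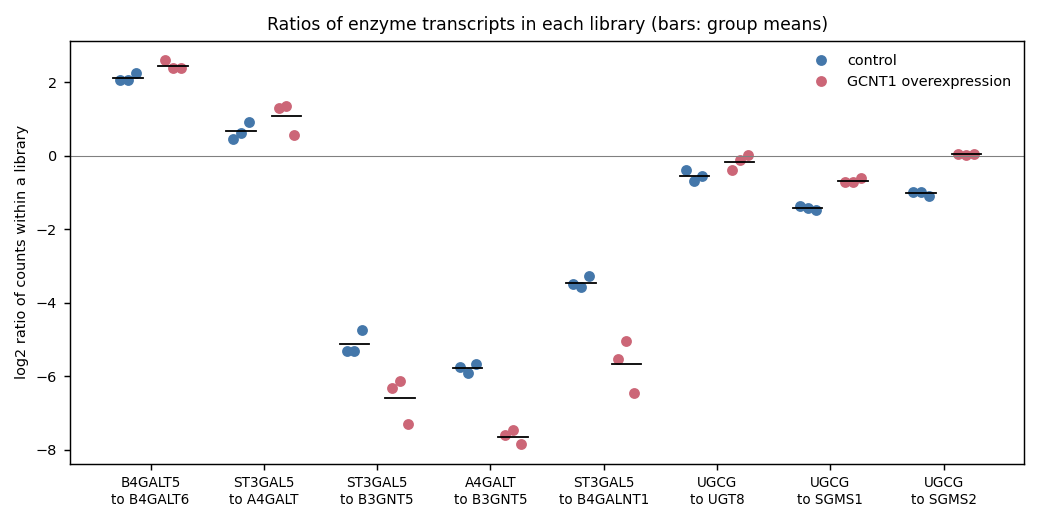
Log2 ratio of the counts of 2 enzymes in each library, with 3 control (blue) and 3 GCNT1 overexpression (red) points per ratio and black bars at the group means. The ratios of ST3GAL5 and A4GALT to B3GNT5 and of ST3GAL5 to B4GALNT1 are lower in each overexpression library, the UGCG ratios are higher, and ST3GAL5 to A4GALT overlaps.

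The rest of the pathway was read from lists of 65 further genes, of which 50 were compared and 7 called (14%, against 19.3% of all genes), 2 higher and 5 lower. By the adjusted p alone 32 of the 50 passed, 14 higher and 18 lower, near the 57.6% of all genes, and the median log2 fold change was -0.06. Of 6 compared enzymes that extend or cap the chains, 3 were called lower (11.1% of all genes were), and 5 passed the adjusted p, 2 as higher and 3 as lower (median -0.32). With library size alone 1 of them was called higher and 2 lower. ST3GAL1, a sialyltransferase of O-glycans and of gangliosides, fell from 707 to 172 CPM (counts 8831, 9063 and 8182 against 1856, 2468 and 2463, log2 fold change -2.04, edgeR, BH-adjusted p = 4.08e-12). B3GALNT1, which makes globoside (Gb4) from the product of A4GALT, had a log2 fold change of -0.65 (edgeR, BH-adjusted p = 7.07e-06) and -0.58, just under the threshold, without overexpression replicate 1. NMD3 overlaps it on the opposite strand. B3GALT5, counted 23, 19 and 10 times in control and 6, 10 and 14 times in overexpression libraries, had groups that overlapped, and its call (log2 fold change -0.88, edgeR, BH-adjusted p = 0.0438) was lost in 9 of 14 alternative fits, with library size in place of TMM among them. FUT1 gained a call, as higher, with library size (0.58) and without control replicate 3 (0.69).

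The largest differences of the pathway lay in ceramide supply. SPTLC3, a subunit of serine palmitoyltransferase, which starts sphingolipid synthesis, was counted 1931, 1826 and 1675 times in control and 64, 105 and 93 times in overexpression libraries (log2 fold change -4.47, standard error 0.09, edgeR, BH-adjusted p = 3.31e-13). CERS1, a ceramide synthase, was counted 36, 30 and 43 times in control and 1 time in each overexpression library, a summed 109 counts against 3 (edgeR, BH-adjusted p = 3.23e-07). Scaled by library totals, control was 37.3 times overexpression, with an exact 95% interval for counting error from 12.4 to 184. GDF1 shares exons with CERS1 on the same strand, so its counts are uncertain. These were the 2 called genes of 18 compared in ceramide supply and sphingomyelin synthesis (11.1%, against 19.3% of all genes), where 11 passed the adjusted p, 5 as higher and 6 as lower, near the 57.6% of all genes. Their median log2 fold change was -0.05.

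Among 12 compared genes of breakdown, 2 were called, both higher (16.7%, against 19.3% of all genes), and 8 passed the adjusted p, 5 as higher and 3 as lower (57.6% of all genes passed, median 0.09). Both shares lie near those of all genes. GLA, the lysosomal galactosidase that degrades Gb3, was counted 312, 303 and 281 times in control and 516, 503 and 526 times in overexpression libraries (log2 fold change 0.70, standard error 0.08, edgeR, BH-adjusted p = 1.36e-05), with RPL36A overlapping it on the opposite strand. GLB1, which removes galactose from GM1, was counted 674, 652 and 611 times in control and 968, 1076 and 1109 times in overexpression libraries (log2 fold change 0.61, standard error 0.06, edgeR, BH-adjusted p = 1.11e-06), and without overexpression replicate 1 it was 0.58, just under the threshold. TMPPE overlaps GLB1 exons on the same strand, so the counts of GLB1 are uncertain. GLA rose while A4GALT, which makes its substrate, fell, and a link between the 2 was not tested. Neither GLA nor GLB1 was called with glmTreat (BH-adjusted p = 0.225 and 0.744). None of 12 sugar donor genes was called, against 19.3% of all genes. By the adjusted p 2 of them passed as higher and 5 as lower (median -0.17), near the 57.6% of all genes. Neither of 2 lipid carriers was called, and 1 passed the adjusted p as lower (median -0.23), too few to set against these shares.

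**Figure D4:**
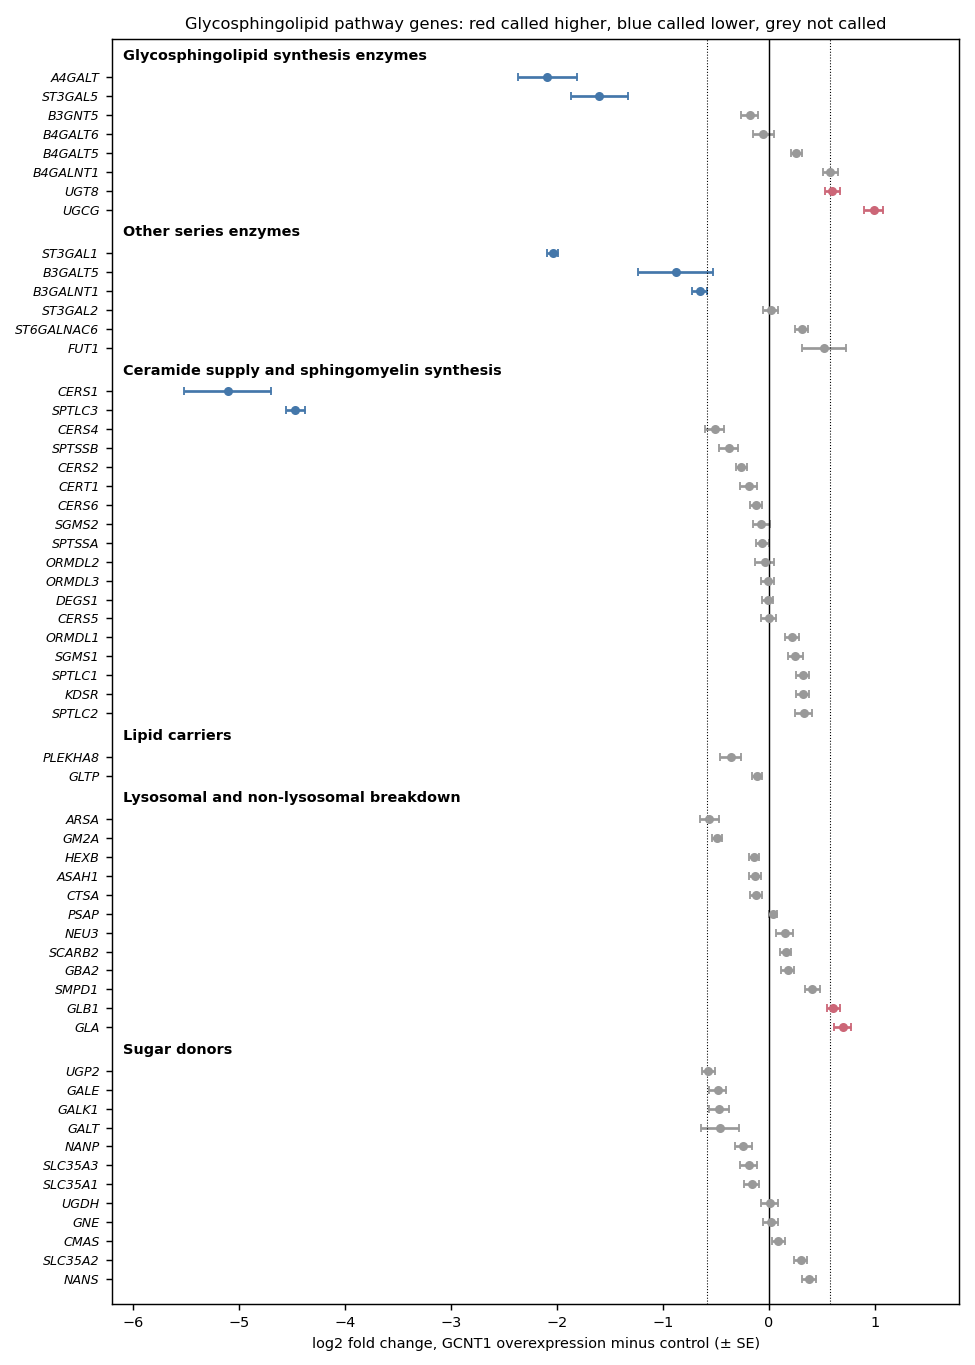
Log2 fold change (overexpression minus control, edgeR) of the 8 enzymes and of the compared genes of each pathway list, 1 point per gene with its standard error (red called higher, blue called lower, grey not called) and dotted lines at the fold threshold of 0.58 in either direction. The point of CERS1 rests on 1 count in each overexpression library, SPTLC3 at -4.47 and ST3GAL1 at -2.04 lie far below the line, and most pathway genes lie between the lines.

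The genes whose log2 CPM, centred per gene, lay nearest to each called enzyme over the 6 libraries were taken by Euclidean distance. For UGCG they were PCDHGB2 (distance 0.10), TASOR2 (0.12) and ITGBL1 (0.13), and for UGT8 they were CALML4 (0.09), GYG1 (0.09) and NEK6 (0.10). For A4GALT they were SLC8A1 (0.17), KCNMB4 (0.21) and XK (0.22). The nearest genes to ST3GAL5 lay farther away, at 0.40 for TSPEAR, 0.43 for TCP11 and 0.48 for EDARADD. None of these genes belongs to the lists above, and the likeness describes these libraries alone.

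The median log2 fold change of the 50 genes nearest on the chromosome was 0.35 around UGCG, 0.15 around UGT8, 0.01 around ST3GAL5 and -0.25 around A4GALT. Relative to these neighbours the values were 0.64 for UGCG, 0.46 for UGT8, -1.61 for ST3GAL5 and -1.84 for A4GALT, so UGT8 then lay under the fold threshold. For B4GALNT1 the neighbours' median was 0.28 and the relative value 0.30.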

How the data were processed

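RNA was taken from 3 control and 3 GCNT1 overexpression PC3 lines. The authors made stranded mRNA libraries (75 bp single reads), used Cutadapt for trimming and HISAT2 for alignment to hg38, and deposited gene counts from featureCounts by Entrez identifier, which they tested with limma-voom. The annotation, the strand setting and any filter on low counts were not given in the sources used here. Fold changes and p-values were computed here from the deposited counts.

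Groups came from the sample labels. All 12703 genes were tested with edgeR 4.0.16 (TMM, quasi-likelihood test, Benjamini-Hochberg (BH) adjustment) in R 4.3.3, tables and exact permutation tests were made in Python 3.11.15, and genes were called at an adjusted p under 0.05 and an absolute log2 fold change of at least 0.58. Ratios used a pseudocount of 0.5. The share of gene pairs whose ratios did not overlap between groups was taken over all pairs. Alternatives were other scalings and filters, DESeq2 1.42.0, limma 3.58.1, glmTreat, the replicate block and leaving out each library. The fit was tested on simulated data. The depth was 11392213 to 13825704 counts per library, and replicate libraries differed beyond sampling noise (chi-square per degree of freedom from 1.65 to 5.57). Gene positions came from RefSeq and overlaps from GENCODE 44.

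The members and lists were chosen with earlier results of these data known. Named genes were the members, GCNT1, every called gene of each list (the 4 with the smallest p where more were called) and the 3 nearest genes of each called member. SGMS1 and SGMS2 were named as partners in the ratios and the marker genes as lists. Outside these, FUT1 was named after its values were seen, and CYB5R3 and the other overlapping genes were named for their position. A further marker list is not reported here.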

Additional observations from a re-analysis of the deposited data

How the results depend on the processing

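The 4 calls among the enzymes were made under most alternatives. Requiring at least 10 counts in every library left 2, because that filter removes ST3GAL5 and A4GALT. Library size alone gave 5 and glmTreat, which tests against the fold threshold, gave 3, with UGT8 losing its call. Leaving out each library gave 4 to 5. Without control replicate 3 UGT8 lost its call and B4GALNT1 gained one. Of the other pathway genes, 3 were called with glmTreat, where B3GALNT1, B3GALT5, GLA and GLB1 lost their calls. Leaving out each library gave 5 to 10 calls of other pathway genes, with 10 without control replicate 3. All genes gave 1392 calls with glmTreat and 2409 to 2511 when each library was left out. The sign of the log2 fold change of B4GALT6 was not settled by the main fit (-0.05, 95% interval -0.27 to 0.16). It was 0.00 with library size alone and 0.11 relative to its neighbours, and leaving out each library gave -0.13 to 0.04. The cause of these shifts was not tested. Library size moved the median of all genes to 0.06 and the share of calls that were higher from 42.8% to 51.1%.

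The replicate numbers did not pair the libraries (correlation of same-numbered libraries -0.273, -0.0024 and -0.109). With the replicate block 4 enzymes, 6 other pathway genes and 2423 genes in all were called, and B3GALT5 lost its call.

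ST3GAL5, A4GALT and CERS1 rest on few reads, which limits the precision of their folds.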
